A study of Homo sapiens with 4 samples.

Results

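The 8 genes OSR1, PAX2, PAX8, LHX1, EYA1, WT1, SALL1 and GATA3, here called the members, encode regulators that specify the kidney lineage. They were chosen by symbol as identity genes of nephron progenitors and collecting duct, not by their values, and all 8 are among the 27011 genes of the deposited count table. RNA was sequenced from 2 WT and 2 Helz-null libraries of HEK293T, an established human embryonic kidney cell line. Cells of both genotypes were untreated, were plated 24 h before harvest and differ by design only in the helz gene, in which Cas9 editing left a frameshifting deletion in exon 8. The series' design text calls the 2 libraries of a genotype biological replicates. The sources used here do not say whether the Helz-null line came from a single cell, so that the edit and the history of a clone cannot be told apart.

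The kidney arises from the intermediate mesoderm. OSR1 is among the earliest genes of that tissue. LHX1, PAX2 and PAX8 then mark the nephric duct, and PAX2 also marks the condensing mesenchyme. In the metanephric mesenchyme, EYA1 acts as a coactivator of SIX2, WT1 is a zinc-finger factor that remains on in podocytes, and SALL1 is a zinc-finger protein that binds the NuRD repressor complex. GATA3, a known target of PAX2 and PAX8, marks the duct and later the collecting duct. In bulk RNA, fewer cells that express a gene and less RNA per cell cannot be told apart.

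Counts per library totalled 41745401 to 70464140, and the floor of 3 counts lay at 0.0426 to 0.0719 CPM. CPM, counts relative to the library total, were scaled by the TMM method, and FPKM are these CPM per kilobase of the deposited gene width. Genes were tested with edgeR's quasi-likelihood test, as log2FC of Helz-null against WT, and called at a Benjamini-Hochberg FDR under 0.005. The 10978 genes of the authors' comparison, selected by FPKM, include EYA1, WT1, SALL1 and GATA3. For PAX2, LHX1 and OSR1 the same test was fitted to the 16087 genes that passed filterByExpr, edgeR's filter on low counts, and PAX8 passed neither selection. HELZ, the edited gene, had 97.6 and 102 CPM in the WT libraries and 36.2 and 37.1 CPM in the Helz-null libraries (log2FC -1.44, standard error, SE, 0.042, edgeR adjusted p = 2.13e-27), in the direction of the labels.

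SALL1 was the most abundant of the members per unit of length and PAX8 was at the limit of detection. In WT cells the mean FPKM fell from 8.53 for SALL1 through 3.94 for EYA1, 3.48 for WT1, 3.28 for GATA3, 1.22 for PAX2 and 0.807 for LHX1 to 0.171 for OSR1 and 0.00576 for PAX8. The FPKM of WT1 (3.20 to 3.76) and GATA3 (3.24 to 3.32) overlapped between libraries, and all other neighbours in this order were separated in both WT libraries. SALL1 lay above 73.8% of all genes in the table and LHX1 above 52.0%. In Helz-null cells the order below SALL1 differed. GATA3 (3.76 to 4.07 FPKM) and WT1 (3.63 to 3.83 FPKM) overlapped and both lay above EYA1 (2.60 to 2.79 FPKM). LHX1 (1.39 to 1.88 FPKM) overlapped with PAX2 (1.50 to 1.63 FPKM), which it did not reach in WT cells.

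**Figure D1:**
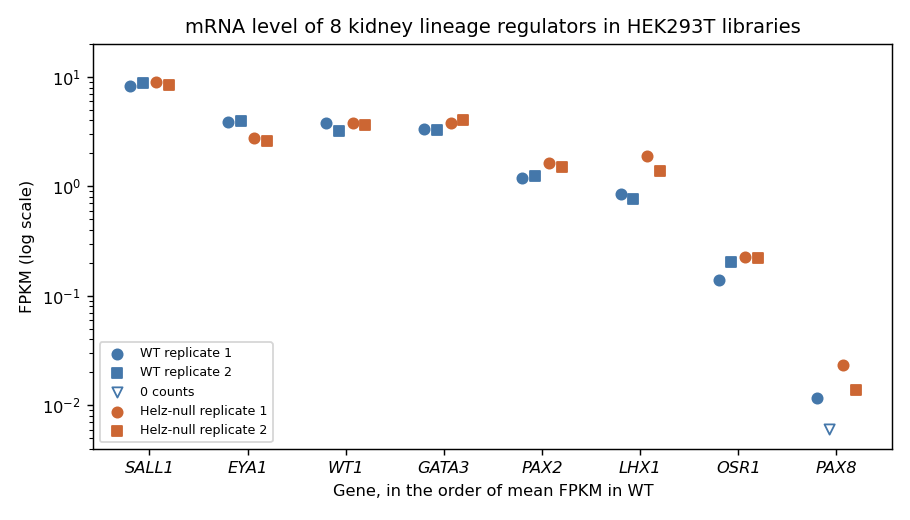
FPKM on a log scale of the 8 members in each of the 4 libraries, WT in blue and Helz-null in orange, ordered by the mean in WT; the open triangle marks the library with 0 counts for PAX8 and has no value on the scale. EYA1 is lower and LHX1 higher in both Helz-null libraries, and PAX8 is below 0.03 FPKM throughout.

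EYA1 fell and LHX1 rose in Helz-null cells, and no other member was called. Of the 4 members in the authors' comparison 1 was called, against 29.4% of the genes tested there, 13.9% up and 15.5% down. Of the 3 tested among filterByExpr genes 1 was called, against 21.4% of those genes, 9.83% up and 11.5% down, and with all 7 of the testable members in that fit 2 were called. The numbers called are thus close to the background. The median log2FC was 0.26 over the 7 members and -0.0016 over all filterByExpr genes. CPM of the WT and Helz-null libraries did not overlap for 2 of 4 members, against 70.6% of genes, and for 3 of 3, against 65.0% of genes.

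EYA1 (chromosome 8 of GRCh37, the assembly of hg19, 72109668 to 72504260, minus strand) encodes a transcriptional coactivator that is also a protein phosphatase and binds DNA only through partners. It was counted 1128 and 751 times in the WT libraries and 531 and 836 times in the Helz-null libraries. This is 17.6 and 17.9 CPM in WT against 12.6 and 11.7 CPM in Helz-null cells. Both Helz-null libraries were below both WT libraries, and the replicates of a group lay within 0.10 of each other on the log2 scale. EYA1 decreased 1.47-fold, with a log2FC of -0.55 (SE 0.079, edgeR adjusted p = 2.71e-07). The 24 tested genes that start within 5 Mb of it had a median log2FC of -0.011, with 10 above and 14 below 0.

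The pattern of EYA1 over the 4 libraries was closest to those of SERINC2, SLC6A9 and VIPR1, at Euclidean distances of 0.0033, 0.017 and 0.017 between centred log2 CPM. With 2 groups of 2 libraries such a likeness says little more than that the log2FC was similar, at -0.55, -0.56 and -0.55. Around VIPR1, unlike around EYA1, 50 of 51 tested genes within 5 Mb also had a log2FC below 0, and VIPR1 was not called without Helz-null replicate 2 (-0.50).

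LHX1 (chromosome 17, 35294084 to 35301912, plus strand) encodes a LIM-homeodomain factor needed for the nephric duct and for patterning of the early nephron. Its counts were 187 and 110 in WT and 272 and 341 in Helz-null libraries. In CPM it measured 2.91 and 2.62 in WT and 6.44 and 4.79 in Helz-null cells, so that the groups did not overlap. The increase was 1.98-fold (log2FC 0.98, SE 0.15, edgeR adjusted p = 4.98e-06 among filterByExpr genes). The Helz-null libraries differed from each other by 0.43 on the log2 scale, more than the standard error of 0.12 that counting alone gives where every count is a separate fragment, and without Helz-null replicate 1 the log2FC was 0.78. Of 82 tested genes within 5 Mb, 52 had a log2FC above 0, with a median of 0.047.

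PAX2 (chromosome 10, 102495153 to 102589701, plus strand) and PAX8 (chromosome 2, 113973574 to 114036498, minus strand) encode closely related paired-domain factors that act together in early kidney development. PAX2 measured 5.08 and 5.25 CPM in WT and 6.91 and 6.34 CPM in Helz-null cells. Both Helz-null values were higher, and the difference did not pass the threshold (log2FC 0.35, SE 0.12, 95% interval 0.12 to 0.58, edgeR adjusted p = 0.019). PAX8 had 3 and 0 counts in WT and 4 and 4 counts in Helz-null libraries. These are at or next to the floor of 3 counts, and no difference in PAX8 was detectable at this depth. PAX8-AS1, which overlaps PAX8 on the other strand, was counted at most 5 times in any library.

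OSR1 (chromosome 2, 19551246 to 19558384, minus strand), a zinc-finger factor of the intermediate mesoderm, was counted 17 and 16 times in WT and 18 and 30 times in Helz-null libraries. This corresponds to 0.265 and 0.382 CPM against 0.426 and 0.421 CPM. Its log2FC of 0.42 had a standard error of 0.44 and an interval of -0.43 to 1.28, which holds 0 as well as changes of more than 2-fold (edgeR adjusted p = 0.50).

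GATA3 (chromosome 10, 8087341 to 8117161, plus strand) measured 10.2 and 9.95 CPM in WT and 11.5 and 12.5 CPM in Helz-null cells. The groups did not overlap, but the log2FC of 0.26 (SE 0.090, 95% interval 0.082 to 0.44) was not called (edgeR adjusted p = 0.018). Among 24 tested neighbours 19 also had a log2FC above 0, with a median of 0.068. GATA3-AS1, on the opposite strand within the locus, had 7 to 18 counts per library.

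For WT1 and SALL1 the libraries of both genotypes overlapped. WT1 (chromosome 11, 32409321 to 32457110, minus strand) measured 12.5 and 10.6 CPM in WT and 12.7 and 12.0 CPM in Helz-null cells (log2FC 0.084, SE 0.090, 95% interval -0.093 to 0.26, edgeR adjusted p = 0.48). The WT replicates themselves differed by 0.23 on the log2 scale, and without WT replicate 2 the log2FC was -0.014. SALL1 (chromosome 16, 51169893 to 51186245, minus strand) measured 44.2 and 47.2 CPM in WT and 48.2 and 45.1 CPM in Helz-null cells. Its log2FC of 0.027 had the narrowest interval among the members, -0.070 to 0.12 (edgeR adjusted p = 0.69), and took the other sign when WT replicate 1 (-0.023) or Helz-null replicate 1 (-0.017) was left out. WT1-AS, the antisense gene at the 5′ end of WT1, was counted 17 and 14 times in WT and 22 and 50 times in Helz-null libraries (log2FC 1.08, SE 0.41, edgeR adjusted p = 0.039, not called). The sources used here do not say whether reads were counted by strand, so that reads of a member and of its antisense gene cannot be told apart.

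**Figure D2:**
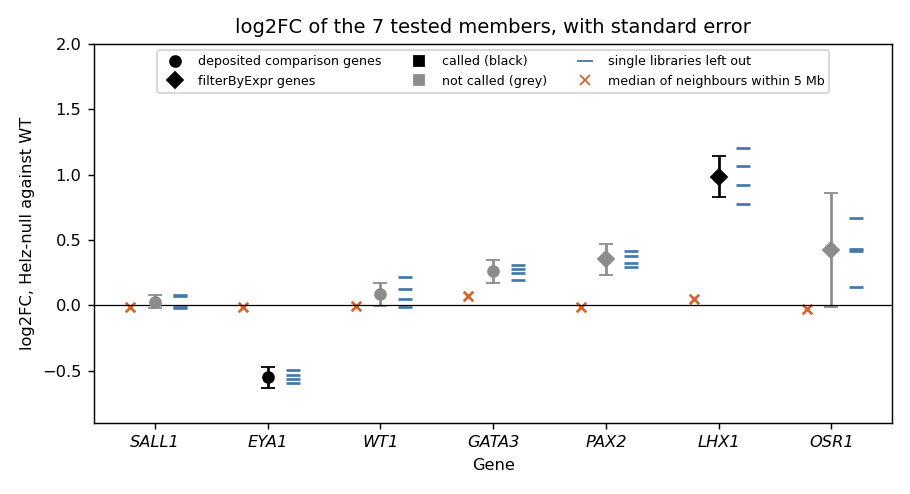
log2FC of Helz-null against WT with its standard error for the 7 tested members, circles for genes of the authors' comparison and diamonds for genes tested in the filterByExpr selection, black where called. Blue dashes give the log2FC with each library left out in turn and orange crosses the median of tested neighbours within 5 Mb, which lies between -0.029 and 0.068 for every member shown, while EYA1 stands at -0.55 and LHX1 at 0.98.

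In most families another gene was more abundant than the member. EYA3 (11.8 FPKM over the 4 libraries) and EYA4 (5.92) lay above EYA1 (3.32), EYA2 (4.35) did so in Helz-null cells only, and SALL2 (15.9) lay above SALL1 (8.61). GATA2 (13.6), GATA6 (8.64) and GATA4 (7.79) exceeded GATA3 (3.60), OSR2 (4.61) exceeded OSR1 (0.197), and PAX3 (3.26), PAX6 (3.15) and PAX9 (2.77) exceeded PAX2 (1.39). LHX2 (2.14), LHX6 (1.98) and LHX4 (1.70) exceeded LHX1 (1.22) over the 4 libraries. In Helz-null libraries LHX1 (1.39 to 1.88 FPKM) overlapped with LHX4 (1.64 to 1.75 FPKM) and LHX6 (1.83 to 2.12 FPKM).

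Of the 30 related genes 14 were in the authors' comparison, and 2 rose and 2 fell, a share close to the background. Without Helz-null replicate 2 the number called was 2 in place of 4. EYA2, which encodes a coactivator of the same kind as EYA1, rose from 4.06 and 3.66 FPKM in WT to 4.67 and 5.03 FPKM in Helz-null cells (log2FC 0.33, edgeR adjusted p = 0.0026). The call of EYA2 was lost without WT replicate 2 (log2FC 0.26) or Helz-null replicate 2 (0.27). EYA1 and EYA2 thus overlapped in WT cells, at 3.90 to 3.98 and 3.66 to 4.06 FPKM, and were separated in Helz-null cells. The difference between their changes was not tested. EYA3 (log2FC -0.054) and EYA4 (-0.045) were not called. SALL3 rose 2.10-fold (log2FC 1.07, adjusted p = 9.33e-14), and all 17 of its tested neighbours within 5 Mb also had a log2FC above 0, with a median of 0.60. SALL2 fell by 0.19 and GATA6, a factor of heart and endoderm, by 0.40 on the log2 scale (edgeR adjusted p = 5.07e-05 and 4.84e-07), and without Helz-null replicate 2 SALL2 was not called (-0.17). Among filterByExpr genes 25 were tested, 3 rose and 3 fell, against 21.4% of those genes called. The genes called in that selection alone were GATA5 (log2FC 0.73, edgeR adjusted p = 0.0038) and LHX8. LHX8, a factor of forebrain neurons, had 77 and 80 counts in WT and 7 and 30 in Helz-null libraries (log2FC -2.25, SE 0.36, edgeR adjusted p = 5.67e-06 among filterByExpr genes).

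**Figure D3:**
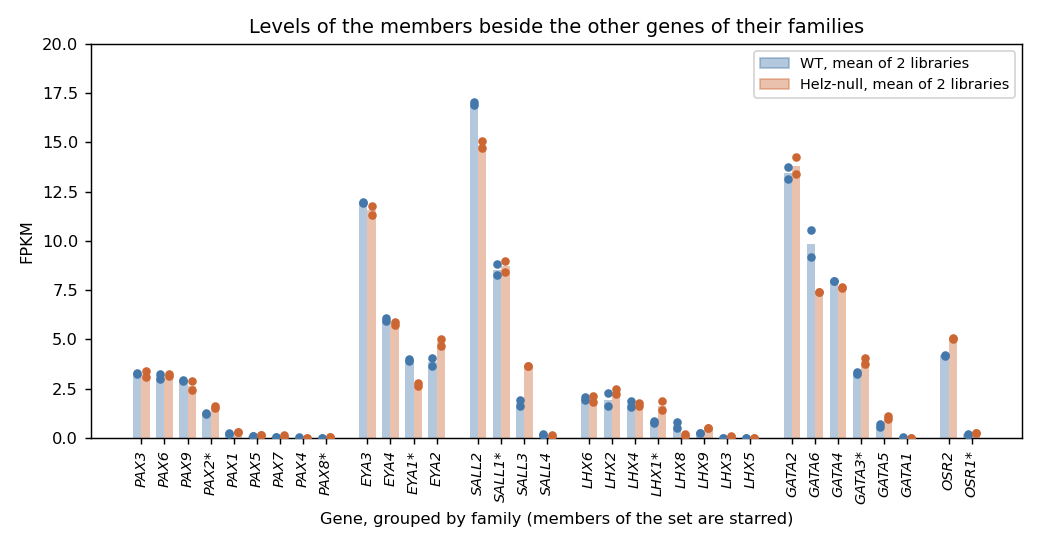
FPKM of the PAX, EYA, SALL, LHX, GATA and OSR families, with bars for the mean of 2 libraries and points for single libraries, WT in blue and Helz-null in orange; members are starred. Other genes of the family stand above the member in each family, and the points of EYA1 and EYA2 overlap in WT and are separated in Helz-null cells.

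Among genes of proteins known to bind the members or their cofactors, 7 rose and 2 fell. Of 20 listed genes 18 were in the authors' comparison, so that 50% were called, against 29.4% of all genes tested (13.9% up and 15.5% down), and the median log2FC was 0.094, against -0.00091 over all genes tested. BASP1, a corepressor of WT1, changed most. It rose 2.83-fold, from 9.28 and 9.07 CPM in WT to 27.0 and 25.2 CPM in Helz-null cells (log2FC 1.50, edgeR adjusted p = 1.96e-19), while WT1 itself was not called. The study had reported the rise of BASP1, also by RT-qPCR, where expression of GFP-tagged HELZ in Helz-null cells reversed it in part. SSBP2 (log2FC 0.39) and SSBP3 (0.32), whose products bind the LDB cofactors of LIM-homeodomain factors, rose, whereas LDB1 (0.042) was not called. DACH1 (0.39), a partner of EYA1, and PAXIP1 (0.34), which links PAX proteins to histone methylation, also rose. Their neighbourhoods moved with them: 11 of 11 tested genes around DACH1 (median 0.43) and 33 of 34 around PAXIP1 (median 0.31) had a log2FC above 0. Of the NuRD subunits that SALL1 binds, CHD4 (0.30) and RBBP4 (0.15) rose, HDAC2 (-0.29) and MTA1 (-0.16) fell, and MTA2, HDAC1 and RBBP7 lay between 0.015 and 0.033 and were not called. Calls were lost for SSBP2 without WT replicate 1 (0.32) or Helz-null replicate 2 (0.36), and for MTA1 (-0.14) and RBBP4 (0.13) without Helz-null replicate 1.

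Of the other genes of nephron progenitors as many rose as fell. Of 23 listed genes 17 were in the authors' comparison, 4 rose, 4 fell and 9 were not called (median log2FC -0.045), a share of 47.1% against 29.4% of all genes tested. MEOX2 had 0 counts in every library. SIX2, the defining factor of these progenitors, stood at 29.2 and 29.5 FPKM in WT and 29.0 and 28.1 FPKM in Helz-null cells and was not called (log2FC -0.043, edgeR adjusted p = 0.43). CITED1, which marks the least committed progenitors, fell from 29.8 and 31.0 CPM to 21.5 and 21.0 CPM (log2FC -0.52, adjusted p = 5.24e-09). HOXD11 (-0.50) and HOXA10 (-0.36), homeobox genes of the posterior body axis, also fell, and NCAM1 (0.40), ITGA8 (0.39) and DACH1 (0.39) rose. HOXA11, the paralog that acts with HOXD11 in the kidney, was not called (-0.093, adjusted p = 0.086).

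In the ureteric bud and collecting duct list, 9 of 31 genes were in the authors' comparison, of which 3 were called (33.3% against 29.4% of all genes), and 8 had no library above 3 counts. SOX8 rose (log2FC 0.46), and the keratin genes KRT8 (-0.98) and KRT18 (-0.16) fell, KRT8 from 26.8 and 29.3 CPM to 13.6 and 14.6 CPM (edgeR adjusted p = 7.13e-15). The call of KRT18 was lost without WT replicate 1 (-0.15) or either Helz-null replicate (-0.17 and -0.16). In the filterByExpr selection 19 genes were tested, of which 2 rose and 5 fell, against 21.4% of those genes called. The 4 called in that selection alone were EPCAM (log2FC -1.52, adjusted p = 0.00021), an epithelial adhesion gene, ETV4 (-1.06, adjusted p = 0.0042), a transcription factor gene of the bud tip, RET (log2FC 0.57, adjusted p = 0.00034), the gene of the receptor that drives budding of the ureter, and its coreceptor gene GFRA1 (-0.56, adjusted p = 0.0013).

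Of the 17 genes of the early nephron 8 were in the authors' comparison, with 3 up and 2 down (median 0.10). This is 62.5% of those tested, against 29.4% of all genes. The filterByExpr selection held 13 of the early nephron genes, of which 2 rose and 3 fell, against 21.4% of all genes called there. NOTCH1 was not called there (adjusted p = 0.0063), whereas BMP2 (log2FC -1.04, edgeR adjusted p = 2.24e-05), a growth factor gene, was. POU3F3 (0.37), NOTCH2 (0.26) and NOTCH1 (0.18) rose, and the Notch ligand gene DLL1 (-0.37) and CCND1 (-0.33) fell. NOTCH1 was also not called without WT replicate 1 (0.15) or Helz-null replicate 2 (0.13), nor DLL1 without WT replicate 2 (-0.31) or Helz-null replicate 1 (-0.29). HEY1, the most abundant of the list, was not called (-0.073, adjusted p = 0.054). WNT4, which induces nephrons, had 8 and 7 counts in WT and 5 and 21 counts in Helz-null libraries and was not tested.

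Of the 17 podocyte genes 10 were in the authors' comparison, 5 rose and 4 fell, and the median log2FC was 0.0074. These are 90% of the genes tested, against 29.4% of all genes. The filterByExpr selection held 13 of the podocyte genes, of which 4 rose and 4 fell, against 21.4% of all genes called there. FOXC1 (0.12) was not called there (edgeR adjusted p = 0.0053), whereas FOXC2 (log2FC 1.16, edgeR adjusted p = 0.00010) was. When a change beyond 1.2-fold was required, 1 of the podocyte genes was called, beside 217 genes up and 318 down among all 10978. NPHS1, the gene of the slit diaphragm protein nephrin, was at or under 3 counts in every library. CDKN1C (0.82), NES (0.40) and LMX1B (0.20) rose, as did the abundant ACTN4 (0.18), and VEGFA (-0.27) and PODXL (-0.24) fell. LMX1B was not called among filterByExpr genes (adjusted p = 0.0065) or without WT replicate 2 (0.18) or either Helz-null replicate (0.20 in both cases). Calls were also lost for CDKN1C without Helz-null replicate 2 (0.72), for VEGFA without Helz-null replicate 1 (-0.22) and for PODXL without WT replicate 2 or Helz-null replicate 1 (-0.19 in both cases). Of the 20 genes of the mature tubule 3 were in the authors' comparison, of which TFAP2A rose (0.46), 33.3% against 29.4% of all genes. The filterByExpr selection held 11 of the tubule genes, of which 1 rose and 1 fell, against 21.4% of all genes called there. ESRRG, a nuclear receptor gene of the tubule list, was singled out after its values were seen. It had 231 and 193 counts in WT and 2 and 1 counts in Helz-null libraries (edgeR adjusted p = 6.93e-16 among filterByExpr genes).

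Of the 12 stromal genes 8 were in the authors' comparison, with 1 up and 3 down (median -0.042), 50% of those tested against 29.4% of all genes. The filterByExpr selection held 11 of the stromal genes, of which 1 rose and 2 fell, against 21.4% of all genes called there. ALDH1A2, the retinoic acid synthesis enzyme, fell from 46.5 and 45.5 CPM to 11.9 and 11.2 CPM (log2FC -2.00, edgeR adjusted p = 1.67e-26). RARB, a retinoic acid receptor gene, fell by 0.83 on the log2 scale, and 14 of 14 tested neighbours also had a log2FC below 0, with a median of -0.22. MEIS2 (-0.20, edgeR adjusted p = 0.0048) also fell, but was not called among filterByExpr genes (adjusted p = 0.0065), without either Helz-null replicate (-0.20 and -0.21) or without WT replicate 2 (-0.13).

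**Figure D4:**
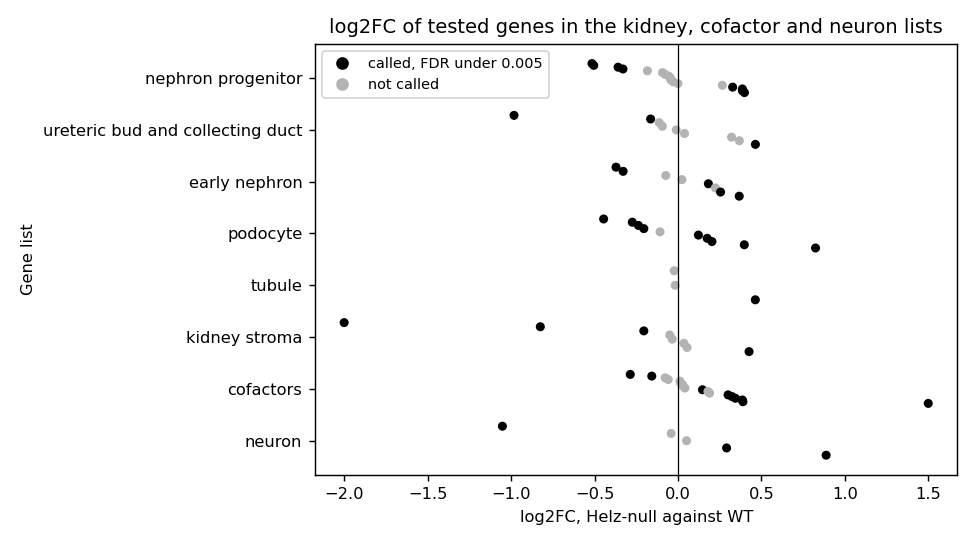
log2FC of Helz-null against WT for the genes of each list that were in the authors' comparison, 1 point a gene, black where called at an FDR under 0.005. In most lists called genes lie on both sides of 0, with ALDH1A2 at -2.00 and BASP1 at 1.50 as the outermost points.

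Over all lists other than the members, with each gene taken once, 85 genes were in the authors' comparison, 24 rose and 20 fell, and the median log2FC was -0.00050. The 44 called genes are 51.8% of those tested, above the 29.4% of all genes, and with a required change beyond 1.2-fold 12 were called. The lists were chosen with results of these data known, and the difference in share was not tested. Markers of other cell types were examined in the same way. Of 14 neuronal genes 5 were in the authors' comparison, NEFM (0.89) and SYP (0.29) rose and INA (-1.05) fell, 60% of those tested against 29.4% of all genes. Among filterByExpr genes 8 were tested and 5 called, against 21.4% of those genes, with MAP2 (log2FC -2.43, edgeR adjusted p = 9.37e-06) and RBFOX3 (0.68, adjusted p = 0.0019) called in addition. The neuronal genes STMN2, ELAVL3, ELAVL4, DCX, NEUROD1 and SNAP25 had at most 8 counts. The summed FPKM of the list was 127 to 131 in WT and 173 to 174 in Helz-null libraries, of which NEFM, a neurofilament gene, held 62.1 to 65.0 and 117 to 118. INA held a mean of 21.6 FPKM in WT and 10.4 FPKM in Helz-null libraries, and the other 12 genes together 43.2 to 44.6 and 44.8 to 45.7. The call of SYP was lost without WT replicate 2 (0.24) or Helz-null replicate 1 (0.21).

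None of the 14 adrenal or 10 endothelial and blood genes was in the authors' comparison. Among filterByExpr genes 5 adrenal genes were tested, and CHGA, the gene of the granule protein chromogranin A, rose from 109 and 61 counts in WT to 147 and 192 counts in Helz-null libraries (log2FC 0.93, edgeR adjusted p = 0.00029), a call that was lost without Helz-null replicate 1 (0.76). HAND2, the adrenal gene with the highest count in any library (198), was not called (log2FC -0.41, adjusted p = 0.0998). In the endothelial and blood list KDR, CD34 and HBA1 were tested and not called, with edgeR adjusted p of 0.20, 0.54 and 0.036, and CD34 had the highest count (68). NR0B1, CYP11A1, TH and HBB had 0 counts in every library. The summed FPKM was at most 3.10 for the adrenal list and 1.44 for the endothelial and blood list. The part of these genes in the values of the members was not tested.

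With libraries scaled by their total only, 2109 genes of the authors' comparison were called up and 1318 down, against 1524 and 1701 with TMM scaling. EYA1 (-0.52) and LHX1 (1.02) kept their direction and were called under that scaling as well.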

How the data were processed

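RNA-Seq of 2 WT and 2 Helz-null HEK293T libraries (TruSeq, paired-end) was used. The authors filtered rRNA reads (Bowtie2), mapped the rest to hg19 (TopHat2) and obtained gene counts from QuasR. The deposited counts are not normalized, and versions, gene annotation and use of strand are not given in the sources used here. Library totals are larger than the number of mapped reads in the study's methods, so that mates may have been counted singly. Counting errors and floors would then be too small and the chi-square values below too large. FPKM were computed with the width, in bases, that is deposited beside the counts of each gene. A second deposited file gives, from the authors' edgeR analysis of 10978 genes, p-values, FDR and log2 values of change and abundance. Only its gene names were used. All 4 count columns belong to known libraries.

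Counts were fitted in R 4.3.3 with edgeR 4.0.16 (TMM, estimateDisp, glmQLFit, glmQLFTest, genotype as the only term), and standard errors follow from log2FC and F. Intervals are 1.96 standard errors, and floors and counting errors cover counting only. The filterByExpr minimum was 10 counts. Distances between profiles used a prior count of 2. DESeq2 1.42.0, other scalings and gene selections, a replicate block, thinned libraries, other thresholds and single libraries left out were alternatives. Positions came from GENCODE on GRCh37, and 10893 of the 10978 genes were matched, 514 of them by an older symbol. LHX1-DT and PAX2-AS1 were not matched and have no value. Figures were drawn with matplotlib 3.10.9, and the test was tried on simulated data.

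The WT libraries differed by more than counting noise (chi-square of 4.16 per degree of freedom), as did the Helz-null libraries (3.01), and all 4 entered the fits. edgeR's biological coefficient of variation was 2.60%. Named genes were the members, HELZ, called cofactors, up to 3 called genes with the largest absolute log2FC in each direction of each other list, the gene of highest FPKM of each list, more abundant family genes, and the closest profiles. Any other gene named was chosen after its values were seen, and some genes of the lists are counted but not reported here by name. Members and lists were chosen with earlier results of these data known.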

Additional observations from a re-analysis of the deposited data

How the results depend on the processing

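EYA1 and LHX1 kept their direction and were called under all alternatives run, with adjusted p between 4.71e-11 and 0.0015 for EYA1 and between 2.11e-11 and 0.00037 for LHX1. WT1, SALL1 and OSR1 were not called under any of them. PAX2 (log2FC 0.35, adjusted p = 0.019) and GATA3 (0.26, adjusted p = 0.018) passed only when genes were called at an FDR under 0.05. At that threshold 2371 genes were called up and 2506 down. When a change beyond 1.2-fold was required by the test, 217 genes were up, 318 were down and 12 list genes were called in place of 44. Leaving out each library in turn gave log2FC from -0.60 to -0.50 for EYA1, from 0.78 to 1.204 for LHX1, from 0.30 to 0.42 for PAX2, from 0.19 to 0.31 for GATA3, from -0.014 to 0.21 for WT1, from -0.023 to 0.078 for SALL1 and from 0.14 to 0.67 for OSR1. WT1 took the other sign without WT replicate 2 (-0.014), and SALL1 without WT replicate 1 (-0.023) or Helz-null replicate 1 (-0.017). The cause was not tested. Uncalled family genes also changed sign. Library size only gave 0.014 for PAX3 and 0.019 for LHX6, and thinning gave 0.0031 for LHX6. Leaving out libraries gave ranges with both signs, from -0.077 to 0.050 for PAX3, from -0.028 to 0.081 for PAX6, from -0.44 to 1.36 for PAX7, from -0.14 to 0.093 for LHX4, from -0.11 to 0.10 for LHX6 and from -0.0034 to 0.088 for GATA2. LHX2, not called with all libraries, was called without WT replicate 2 (0.56). Of the lists, the ureteric bud and collecting duct genes called went from 3 to 7 among filterByExpr genes, and the podocyte genes from 9 to 8. Of the early nephron genes 3 were called by DESeq2 and 5 by edgeR. DESeq2 called 1102 genes up and 1288 down. Same-numbered libraries of the 2 genotypes shared only a number (correlation of their deviations 0.034). With a replicate block, EYA1 had a log2FC of -0.55 and LHX1 of 1.01, and no call of a member changed. OSR1 and PAX8 are limited by depth.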
